A study of Homo sapiens with 6 samples.

Results

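Tight junctions seal the space between epithelial cells near their apical border. Claudins, membrane proteins that span the bilayer and pair across neighbouring cells, set which ions pass. Occludin and tricellulin are larger membrane proteins of the MARVEL family, and the junctional adhesion molecule JAM-A is an immunoglobulin-type receptor. ZO proteins tie many of these proteins to actin. In colon epithelium the sealing claudins are often altered in carcinoma. Here 9 genes of this machinery were described, taken from the deposited table of 20289 genes by their symbols: the claudins CLDN1, CLDN3, CLDN4, CLDN7 and CLDN12, occludin (OCLN), tricellulin (MARVELD2), JAM-A (F11R) and the scaffold ZO-1 (TJP1). All 9 were in the table, and all 9 passed the filter on low counts that left 12920 genes for testing.

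The cells were SW480, an established human colon adenocarcinoma line, sequenced as mRNA in 6 libraries. The MUCP1-FLAG group held 3 libraries of cells overexpressing a FLAG-tagged form of the microprotein MUCP1. The LV-NC group held 3 control libraries, with the genotype given as WT. Both groups grew in L-15 medium with serum. The labels do not say whether a group was 1 clone or a pool, and give no passage, day or batch, so p-values measure only the spread between libraries labelled as biological replicates. The comparison asks which transcripts differ between these groups. MUCP1 itself could not be matched to a gene symbol, so its overexpression was not checked here. Total counts ran from 17333329 to 23282604 per library.

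The simple epithelial keratins KRT8 and KRT18 were high in every library, with mean levels of 3687 and 2487 CPM (counts scaled to library size, by TMM) in MUCP1-FLAG and 3615 and 2281 CPM in LV-NC. The 8 epithelial markers, which also include KRT19, EPCAM, CDH1, VIL1, CDX2 and CEACAM5, summed to 6875 to 7054 CPM in MUCP1-FLAG libraries and 6393 to 7070 CPM in LV-NC libraries. CEACAM5 had a mean of 0.333 counts per library and was not tested. KRT19 rose (log2 fold change 0.17 ± 0.054), while EPCAM, VIL1 (−0.40 ± 0.099) and the adherens junction cadherin CDH1 fell. CDH1 averaged 14.9 ± 0.241 CPM in MUCP1-FLAG and 31.2 ± 0.648 CPM in LV-NC (SD, n = 3 each). The part of these shifts in the results was not tested, and in bulk RNA fewer cells with a transcript and less of it per cell cannot be told apart. Markers of other cells were near 0, apart from CD68 and VWF. The 7 fibroblast markers summed to 0.754 to 1.09 CPM in MUCP1-FLAG and 1.02 to 1.30 CPM in LV-NC, with COL1A2, COL3A1 and DCN at 0 counts. The 5 endothelial markers summed to 2.26 to 4.17 CPM in MUCP1-FLAG and 2.41 to 3.35 CPM in LV-NC, almost all from VWF, with PECAM1, CDH5 and KDR at 0. The 6 blood cell markers summed to 7.54 to 9.22 CPM in MUCP1-FLAG and 12.5 to 13.3 CPM in LV-NC. That sum was mostly CD68, a lysosomal protein gene that also fell (−0.62 ± 0.11), and the leukocyte gene PTPRC was at 0.

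Of the 9 members 3 fell in MUCP1-FLAG cells and 0 rose, at an edgeR quasi-likelihood adjusted p under 0.05. CLDN7 fell most, followed by CLDN4 and OCLN. Over all tested genes 7.71% were called lower and 8.35% higher, 16.1% in either direction. At an unadjusted p under 0.05 the number of higher members was 0, and with DESeq2 it was 0 too. The median log2 fold change of the members was −0.14, beside −0.0042 over all tested genes, and 8 of 9 members had a value below 0, beside 6590 of 12920 genes. In 5 members (CLDN7, CLDN4, CLDN3, OCLN and F11R) every MUCP1-FLAG library lay below every LV-NC library in CPM, which held for 16.4% of all tested genes. In 0 members did every MUCP1-FLAG library lie above, beside 16.6% of all genes. The other 4 members had overlapping groups.

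**Figure D1:**
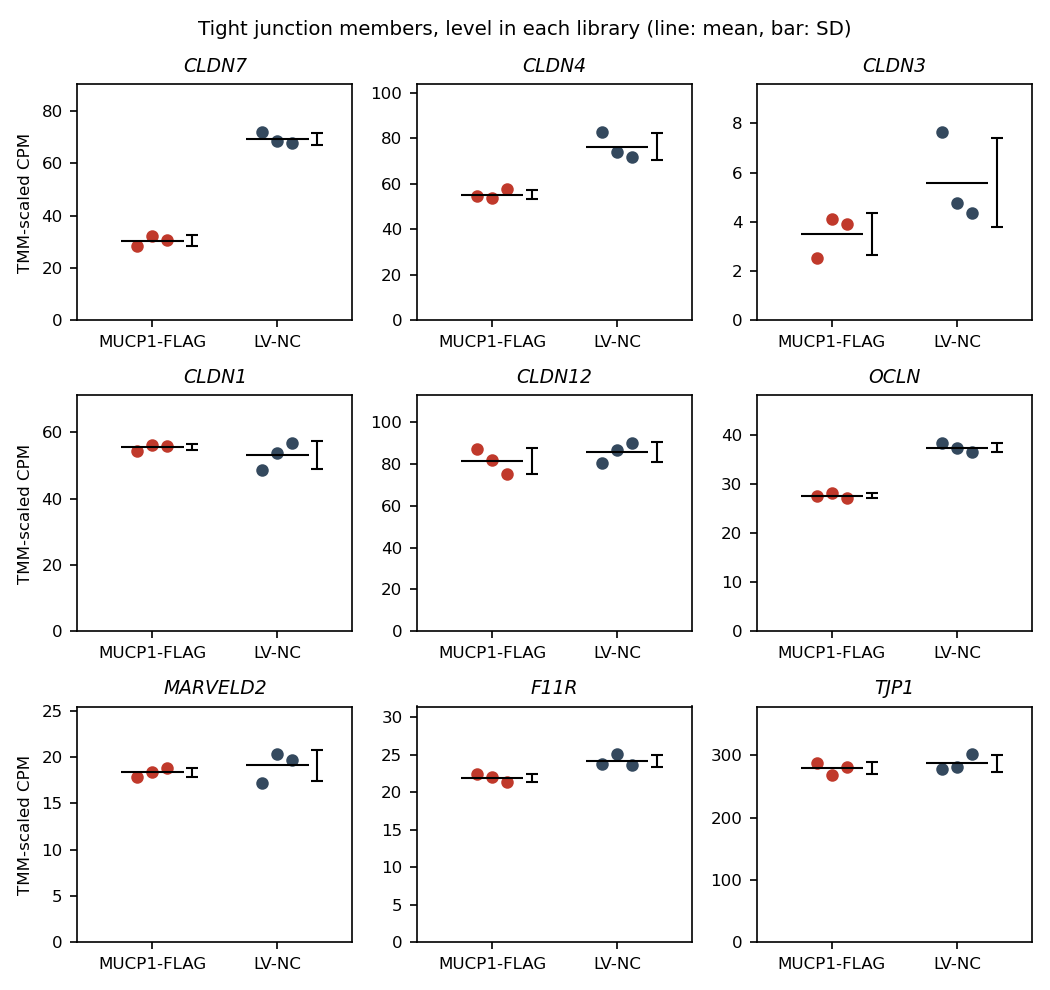
TMM-scaled CPM of the 9 members in each of the 3 MUCP1-FLAG (left, red) and 3 LV-NC (right, dark) libraries, with the mean as a line and the SD as a bar. CLDN7 lies at 28.5 to 32.4 CPM in MUCP1-FLAG and 67.8 to 72.1 CPM in LV-NC, while the points of CLDN1, CLDN12, MARVELD2 and TJP1 overlap.

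CLDN7, a claudin of the lateral membrane of intestinal cells that binds EpCAM, had 28.5, 32.4 and 30.6 CPM in MUCP1-FLAG replicates 1 to 3 and 72.1, 68.4 and 67.8 CPM in LV-NC replicates 1 to 3. The groups lay far apart, with every MUCP1-FLAG library below every LV-NC library. Its log2 fold change was −1.18 ± 0.065 (SE; 95% interval −1.32 to −1.05), a fall by 55.9% (edgeR adjusted p 4.1e-11). Of the 12920 tested genes 58 had a more negative log2 fold change. The gene (ENSG00000181885) lies on the minus strand at chr17:7259903-7263983 on GRCh38. For ELP5, which overlaps CLDN7 on the opposite strand, the value was 0.080 ± 0.066 (edgeR adjusted p 0.453), and strand use in counting is unknown here. The overlapping same-strand model AC003688.1 had 0 counts in all libraries.

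CLDN4, a sealing claudin of colon epithelium, had 54.6, 53.7 and 57.5 CPM in MUCP1-FLAG and 82.9, 74.0 and 71.6 CPM in LV-NC. The groups did not overlap, and LV-NC replicate 1 was the highest library. The log2 fold change was −0.46 ± 0.063 (95% interval −0.59 to −0.33), a fall by 27.4% (edgeR adjusted p 2.4e-05). CLDN4 (ENSG00000189143, plus strand, chr7:73799542-73832693) has CLDN3 (ENSG00000165215, minus strand, chr7:73768997-73770270) as its neighbour, 29271 bases away.

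CLDN3, close in sequence to CLDN4, was low, with 2.55, 4.14 and 3.90 CPM in MUCP1-FLAG and 7.67, 4.77 and 4.35 CPM in LV-NC. These values come from 44, 95 and 76 counts in MUCP1-FLAG and 147, 103 and 83 counts in LV-NC. The groups were apart only by the gap between 4.14 CPM in MUCP1-FLAG and 4.35 CPM in LV-NC, with MUCP1-FLAG replicate 1 low and LV-NC replicate 1 high. The log2 fold change was −0.64 ± 0.22 (95% interval −1.11 to −0.18), at an edgeR adjusted p of 0.0583, so CLDN3 did not pass the test. Without LV-NC replicate 1 the log2 fold change was −0.36 (adjusted p 0.243), and without LV-NC replicate 3 it was −0.79 (adjusted p 0.0137). The other genes next to this pair, ABHD11 and METTL27, had −0.057 ± 0.079 and −0.055 ± 0.19 (edgeR adjusted p 0.68 and 0.883).

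CLDN1, a barrier-forming claudin and a target of Wnt signalling in colon cancer cells, did not pass the test. It had 54.5, 56.2 and 55.9 CPM in MUCP1-FLAG and 48.8, 53.9 and 56.9 CPM in LV-NC, and the MUCP1-FLAG libraries all fell within the LV-NC range. Its log2 fold change was 0.063 ± 0.064 (95% interval −0.071 to 0.20, edgeR adjusted p 0.565). The gene (ENSG00000163347) lies on the minus strand at chr3:190305701-190322475. CLDN12, a claudin that lacks the usual PDZ-binding end, had 87.2, 82.02 and 74.9 CPM in MUCP1-FLAG and 80.4, 86.7 and 90.0 CPM in LV-NC. Here too the groups overlapped, with a log2 fold change of −0.075 ± 0.062 (95% interval −0.20 to 0.054, edgeR adjusted p 0.458). CLDN12 (ENSG00000157224, plus strand, chr7:90383721-90513402) overlaps GTPBP10 and CDK14 on the same strand, so some of its reads may be theirs. GTPBP10 had −0.060 ± 0.065.

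OCLN, the occludin gene, had 27.7, 28.2 and 27.2 CPM in MUCP1-FLAG and 38.5, 37.4 and 36.5 CPM in LV-NC. The libraries of a group differed by less than 2 CPM and the groups lay well apart. The log2 fold change was −0.44 ± 0.068 (95% interval −0.58 to −0.29), a fall by 26.0% (edgeR adjusted p 1.2e-04). The gene (ENSG00000197822, plus strand, chr5:69492292-69558104) has a pseudogene copy on the same chromosome, OCLNP1, and how reads matching both were counted is unknown here.

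MARVELD2, whose product tricellulin sits where 3 cells meet, is the next gene upstream of OCLN, 47961 bases away (ENSG00000152939, plus strand, chr5:69415065-69444330). It had 17.8, 18.4 and 18.8 CPM in MUCP1-FLAG and 17.2, 20.3 and 19.7 CPM in LV-NC, with overlapping groups. Its log2 fold change was −0.059 ± 0.087 (95% interval −0.24 to 0.12, edgeR adjusted p 0.703). The next gene on the far side of OCLN, GTF2H2C, had −0.089 ± 0.069 (edgeR adjusted p 0.422), and RAD17, beside MARVELD2, had 0.0025 ± 0.080.

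F11R, the JAM-A gene, had 22.4, 22.0 and 21.4 CPM in MUCP1-FLAG and 23.8, 25.2 and 23.7 CPM in LV-NC. The groups were apart, by a small gap, and the gene did not pass the test (log2 fold change −0.14 ± 0.076, 95% interval −0.30 to 0.015, edgeR adjusted p 0.221). It lies on the minus strand at chr1:160995211-161021348 (ENSG00000158769) and overlaps the same-strand model AL591806.3, which had −0.0075 ± 0.11. TJP1, the ZO-1 scaffold, was the member with the most reads. It had 287, 269 and 281 CPM in MUCP1-FLAG and 278, 280 and 302 CPM in LV-NC. The groups overlapped, and the log2 fold change was −0.040 ± 0.047, with a narrow 95% interval of −0.14 to 0.059 (edgeR adjusted p 0.626). TJP1 (ENSG00000104067) covers chr15:29699367-29968865 on the minus strand.

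In the authors' deposited table the same 3 members had an adjusted p under 0.05 with a lower level in MUCP1-FLAG, where 4.21% of its 16558 genes with a count did. The authors' deposited table gave an adjusted p of 4.4e-49 for CLDN7, 3.0e-08 for CLDN4 and 2.0e-05 for OCLN, and 0.102 for CLDN3.

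Promoter sequence was looked at because zinc finger repressors of the SNAI and ZEB families, known to act on claudin and occludin genes, bind the E-box CAGGTG, which reads CACCTG on the other strand. RefSeq windows on GRCh38.p14, from 250 bases before to 50 bases from each annotated start, were at hand for 8 members, in 13 windows. Shown are 1 window of each called member and that of CLDN1, with E-boxes in capitals, 5′ to 3′ on the gene's strand. CLDN7 and OCLN each had 2 windows, and the window with more E-boxes is the one shown. The CLDN7 window is chr17:7262429-7262728 (minus), that of OCLN chr5:69492540-69492839 (plus), that of CLDN4 chr7:73830746-73831045 (plus) and that of CLDN1 chr3:190322397-190322696 (minus).
CLDN7: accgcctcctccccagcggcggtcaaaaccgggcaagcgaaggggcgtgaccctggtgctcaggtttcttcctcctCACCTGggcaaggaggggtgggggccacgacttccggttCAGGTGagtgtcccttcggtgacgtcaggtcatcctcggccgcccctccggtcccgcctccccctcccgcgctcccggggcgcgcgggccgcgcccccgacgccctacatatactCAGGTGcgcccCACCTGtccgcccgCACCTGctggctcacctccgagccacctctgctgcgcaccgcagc
OCLN: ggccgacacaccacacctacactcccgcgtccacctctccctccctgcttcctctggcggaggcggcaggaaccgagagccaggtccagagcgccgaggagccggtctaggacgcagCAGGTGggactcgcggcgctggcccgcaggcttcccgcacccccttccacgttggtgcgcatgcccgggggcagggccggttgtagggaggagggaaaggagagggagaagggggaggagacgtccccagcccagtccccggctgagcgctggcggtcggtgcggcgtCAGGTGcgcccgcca
CLDN4: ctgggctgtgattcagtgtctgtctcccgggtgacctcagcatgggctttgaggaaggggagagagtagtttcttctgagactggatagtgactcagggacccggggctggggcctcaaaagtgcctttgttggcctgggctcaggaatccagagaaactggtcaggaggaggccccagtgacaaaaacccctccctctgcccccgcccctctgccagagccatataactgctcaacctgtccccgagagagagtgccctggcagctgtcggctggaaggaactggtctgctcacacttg
CLDN1: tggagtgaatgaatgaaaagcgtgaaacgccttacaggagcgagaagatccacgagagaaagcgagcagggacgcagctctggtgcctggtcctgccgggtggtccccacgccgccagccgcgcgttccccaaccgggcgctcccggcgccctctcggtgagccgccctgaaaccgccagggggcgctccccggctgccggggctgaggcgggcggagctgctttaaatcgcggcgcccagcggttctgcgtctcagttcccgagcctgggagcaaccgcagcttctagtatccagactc

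The CLDN7 window held 5 E-boxes, whose leftmost bases lie at −174, −135, −20, −9 and 6 relative to the start. Of 35116 RefSeq windows, 0.094% held 5 or more, 3.49% held 2 or more and 20.6% held at least 1. The other CLDN7 window, at a start upstream, held 0. The OCLN window shown held 2, at −133 and 36, and the other OCLN window 1. CLDN3 held 1 and TJP1 held 1, in 1 of its 4 windows. CLDN4, which fell, held 0, as did CLDN1, CLDN12 and MARVELD2, which did not pass the test. The GC box GGGCGG, which reads CCGCCC on the other strand, is bound by SP1-type factors. It was present in 45.0% of all windows, and 26.7% held 2 or more. Of the called members, CLDN7 held it 2 times in the window shown and 0 in the other. OCLN held it 0 times in the window shown and 1 time in the other, and CLDN4 1 time. Of the members that did not pass the test, CLDN3 held it 6 times, MARVELD2 3, CLDN1 2, CLDN12 0 and the TJP1 windows 0 to 3. The Grainyhead-like motif AACCGGTT was in 0 windows of the members and in 0.134% of all. Motifs and windows were chosen with the expression results known.

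Of the mRNAs of SNAI and ZEB factors, SNAI1 and ZEB1 did not pass the test. SNAI1 averaged 2.66 ± 0.385 CPM in MUCP1-FLAG and 2.09 ± 0.897 CPM in LV-NC (log2 fold change 0.35 ± 0.26, edgeR adjusted p 0.4), and ZEB1 averaged 29.1 ± 1.49 CPM in MUCP1-FLAG and 27.3 ± 4.76 CPM in LV-NC (0.094 ± 0.099, adjusted p 0.583). SNAI2 fell to 13.8 ± 0.733 CPM in MUCP1-FLAG against 16.8 ± 1.30 CPM in LV-NC (−0.28 ± 0.093, edgeR adjusted p 0.0414). ZEB2, TWIST1 and GRHL2 had 0 counts in every library. Of 19 transcription factors of epithelial junction genes 12 were tested, and 4 fell and 0 rose, beside 7.71% and 8.35% of all tested genes. Besides SNAI2 these were the Krüppel-like factors KLF4 (−0.55 ± 0.082, edgeR adjusted p 7.1e-05) and KLF5 (−0.21 ± 0.050) and the epithelial ETS factor ELF3 (−0.70 ± 0.19). The median of the 12 was −0.19, beside −0.0042 over all tested genes. SNAI2 lost its call when any 1 library but LV-NC replicate 1 was dropped (adjusted p 0.0628 to 0.17), and with DESeq2 (0.0917). ELF3 had 0.0851 when MUCP1-FLAG replicate 3 was dropped and 0.0641 when LV-NC replicate 1 was. KLF5 had 0.0842 when MUCP1-FLAG replicate 3 was dropped and 0.0593 when LV-NC replicate 2 was. On log2(FPKM + 1) with limma 2 of the 4 calls were lost.

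Levels of different genes were compared in FPKM, a deposited unit scaled for transcript length and depth. In MUCP1-FLAG the order of mean FPKM was TJP1 (53.2 ± 2.92), CLDN7 (32.8 ± 2.60), CLDN4 (30.7 ± 1.30), CLDN12 (23.5 ± 1.59), CLDN1 (16.0 ± 0.243), OCLN (6.86 ± 0.452), MARVELD2 (5.42 ± 0.725), F11R (5.34 ± 0.406) and CLDN3 (2.75 ± 0.662). In LV-NC it was CLDN7 (68.5 ± 3.28), TJP1 (55.7 ± 1.87), CLDN4 (42.7 ± 3.59), CLDN12 (24.4 ± 1.55), CLDN1 (15.5 ± 1.28), OCLN (9.14 ± 0.131), MARVELD2 (5.92 ± 0.337), F11R (5.64 ± 0.180) and CLDN3 (4.41 ± 1.41; SD, n = 3 each). CLDN7 thus ranked above TJP1 in LV-NC but below it in MUCP1-FLAG, and the ranges of these neighbours did not overlap in either group. The length implied by its FPKM differed between groups, though, at 867 to 969 bases in MUCP1-FLAG and 1002 to 1039 bases in LV-NC for CLDN7. In MUCP1-FLAG the ranges of CLDN7 and CLDN4 overlapped, and those of MARVELD2 and F11R. In LV-NC the ranges of MARVELD2 and F11R, and of F11R and CLDN3, overlapped.

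The FPKM of the 5 member claudins summed to 103, 106 and 109 in MUCP1-FLAG and 162, 151 and 153 in LV-NC. The sum was lower by 32.0% in MUCP1-FLAG, with a mean of 106 ± 2.83 in MUCP1-FLAG and 155 ± 5.75 in LV-NC (exact two-sided permutation p 0.1, the smallest that 3 against 3 allows). CLDN7 made up 71.7% of that difference and CLDN4 24.2%. This split holds for FPKM, whose implied length of CLDN7 differed between groups, and was not repeated in CPM. The share of CLDN7 in the sum was 29.2, 31.2 and 32.5% in MUCP1-FLAG and 44.6, 43.7 and 43.8% in LV-NC, lower by 13.0 percentage points. With CPM in place of FPKM the difference in the CLDN7 share was −10.4 points. The shares of CLDN12 and CLDN1 were higher in MUCP1-FLAG, by 6.54 and 5.13 points, and for these and CLDN7 the groups did not overlap (exact permutation p 0.1 each, 0.167 adjusted over the 5 claudins). Shares of a sum are tied: a lower CLDN7 share by itself raises the others, so these are not separate results. The mean FPKM of CLDN1 differed by only 0.49 and that of CLDN12 by −0.87 (MUCP1-FLAG minus LV-NC). The share of CLDN4 was 29.02 ± 0.729% in MUCP1-FLAG and 27.4 ± 1.38% in LV-NC, and that of CLDN3 was 2.59 ± 0.581% in MUCP1-FLAG and 2.82 ± 0.793% in LV-NC (exact permutation p 0.2 and 0.8). Neither direction was stable: in CPM the CLDN4 share was lower in MUCP1-FLAG (difference −1.81 points), and the difference in the CLDN3 share was 0.10 points when MUCP1-FLAG replicate 1 was dropped and 0.23 points when LV-NC replicate 1 was.

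**Figure D2:**
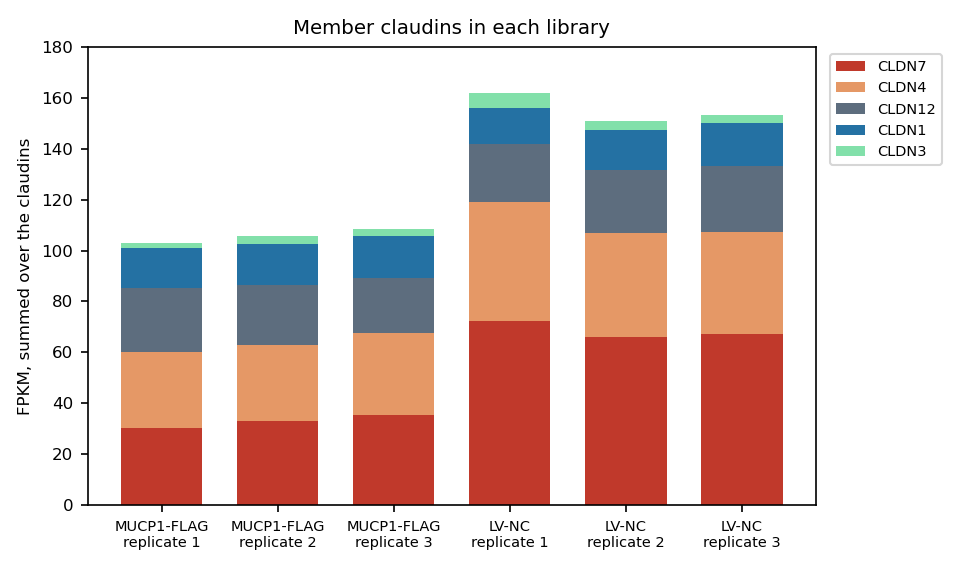
Stacked FPKM of CLDN7, CLDN4, CLDN12, CLDN1 and CLDN3 in each library, the 3 MUCP1-FLAG libraries left of the 3 LV-NC libraries. The stacks reach 103 to 109 FPKM in MUCP1-FLAG and 151 to 162 FPKM in LV-NC, and the CLDN7 and CLDN4 segments are the ones that differ visibly.

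Of the 19 other claudins 15 were under the filter, with at most 4 counts in any library, and 7 of these had 0 counts throughout. The 4 tested were CLDN9, CLDN11, CLDN15 and CLDN23, of which 0 were called, beside 16.1% of all tested genes. At an unadjusted p under 0.05 the number was 0, and with DESeq2 0. CLDN9 had the smallest p, with 1.001 ± 0.342 CPM in MUCP1-FLAG and 1.53 ± 0.289 CPM in LV-NC (log2 fold change −0.59 ± 0.31, edgeR adjusted p 0.21). CLDN11, named after its value was seen, was the most abundant, at 13.4 FPKM in MUCP1-FLAG and 12.7 FPKM in LV-NC. The other claudins together had 17.0 to 19.0 FPKM in MUCP1-FLAG libraries and 17.0 to 18.9 FPKM in LV-NC libraries, so the 5 members held 84.8 to 85.8% of all claudin FPKM in MUCP1-FLAG and 89.4 to 90.0% in LV-NC.

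Of 12 other membrane proteins of the junction 9 were tested, with 4 lower and 1 higher, beside 7.71% and 8.35% of all tested genes. Their median log2 fold change was 0.040, beside −0.0042 over all tested genes, and 4 of the 9 had a value below 0. The polarity protein gene CRB3 fell, with 3.30, 3.44 and 3.38 CPM in MUCP1-FLAG and 6.78, 5.28 and 6.23 CPM in LV-NC (−0.85 ± 0.16, edgeR adjusted p 6.2e-04). MARVELD3, the third MARVEL protein of the junction beside occludin and tricellulin, fell by 0.88 ± 0.20 on the log2 scale (adjusted p 0.00325), at 2.48 ± 0.526 CPM in MUCP1-FLAG and 4.53 ± 0.563 CPM in LV-NC. Angulins recruit tricellulin to the corners of cells. Of these LSR fell by 0.25 ± 0.056, at 102 ± 4.82 CPM in MUCP1-FLAG and 122 ± 7.32 CPM in LV-NC. The less abundant ILDR1, named after its value was seen, fell by 1.07 ± 0.25 (1.29 ± 0.325 CPM in MUCP1-FLAG, 2.69 ± 0.439 CPM in LV-NC). ILDR2 rose by 0.42 ± 0.093 (15.4 ± 0.811 CPM in MUCP1-FLAG, 11.6 ± 0.393 CPM in LV-NC). ILDR2 and LSR were not called on log2(FPKM + 1) with limma, with an adjusted p of 0.437 and 0.233. Levels of CRB3, MARVELD3 and ILDR1 were under 7 CPM in every library.

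Of 26 other scaffold and polarity genes 24 were tested, with 4 lower, 1 higher and a median of −0.077. Of all tested genes 7.71% were lower and 8.35% higher, with a median of −0.0042. TJP3, which encodes ZO-3, fell by 1.06 ± 0.21 (edgeR adjusted p 0.00102), with 1.86, 2.003 and 2.20 CPM in MUCP1-FLAG and 4.95, 4.496 and 3.25 CPM in LV-NC. The polarity adaptor PARD6B fell by 0.38 ± 0.073, AMOTL2 by 0.21 ± 0.046 and PATJ, named after its value was seen, by 0.21 ± 0.069 (adjusted p 0.0423, and 0.0683 with DESeq2). The PATJ call ended when any 1 library but LV-NC replicate 1 was dropped (adjusted p 0.0909 to 0.142). PALS1, listed by its older symbol MPP5, which joins CRB3 to PATJ, rose, with 109, 111 and 116.8 CPM in MUCP1-FLAG and 78.3, 85.0 and 96.3 CPM in LV-NC (0.38 ± 0.064, edgeR adjusted p 3.3e-04). On log2(FPKM + 1) PARD6B had a limma adjusted p of 0.092.

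**Figure D3:**
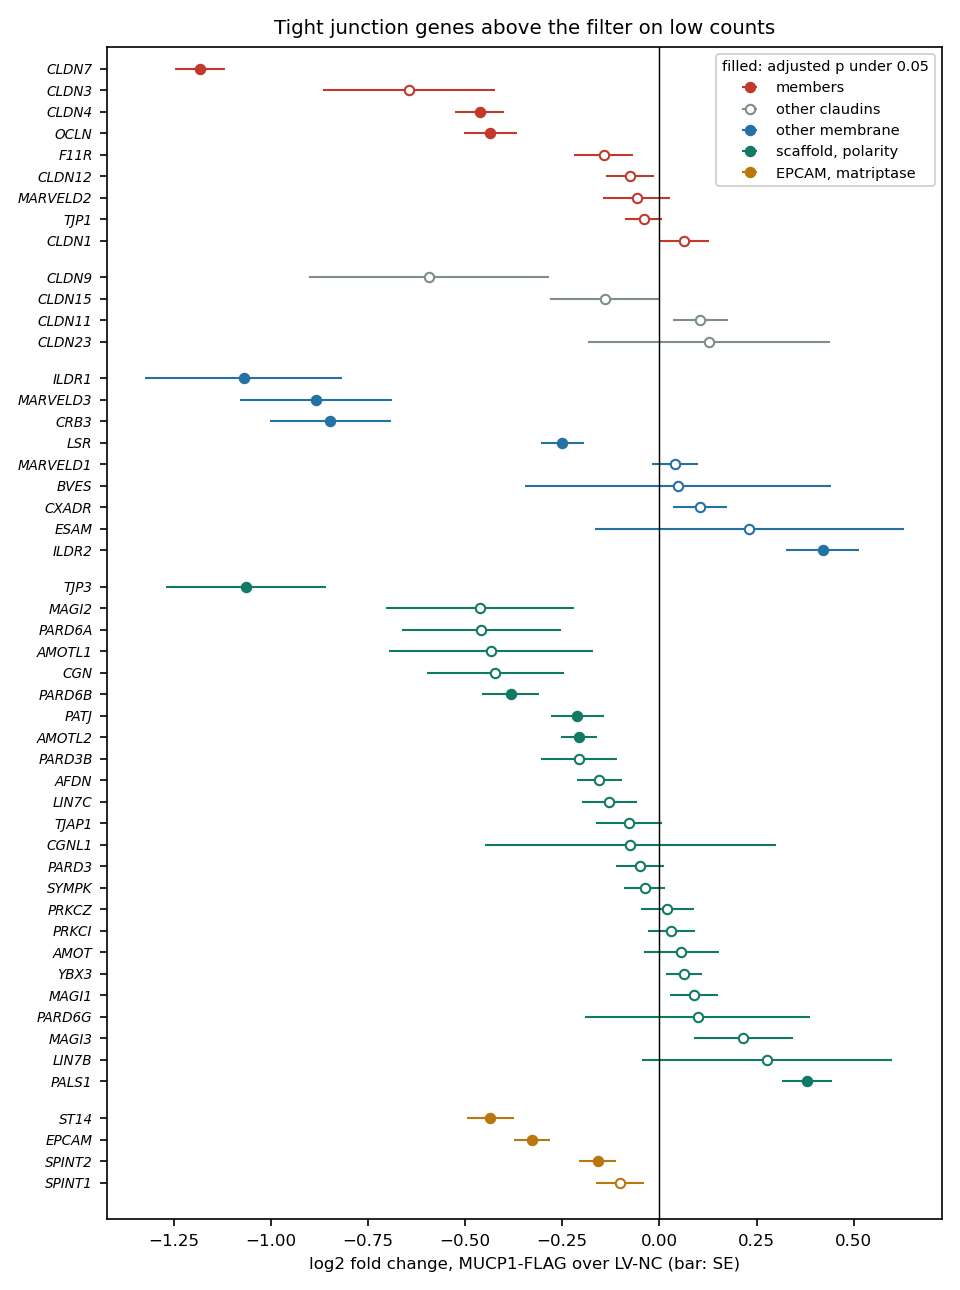
Log2 fold change of MUCP1-FLAG over LV-NC, with its SE, for each tested member (top, red), other claudin, other membrane protein, scaffold or polarity gene and gene of the EPCAM and matriptase group. Filled points have an edgeR adjusted p under 0.05. They lie left of 0 except ILDR2 and PALS1.

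EpCAM binds claudin-7 and protects it from degradation, and the membrane protease matriptase (ST14) cleaves EpCAM. Of the 5 genes of this group 4 were tested and 3 fell, with 0 higher and a median of −0.24. Among all tested genes 7.71% were lower and 8.35% higher, with a median of −0.0042. EPCAM had 198, 208 and 200 CPM in MUCP1-FLAG and 248, 249.5 and 264 CPM in LV-NC (−0.33 ± 0.046, edgeR adjusted p 3.5e-05). ST14 had 84.7, 75.5 and 87.8 CPM in MUCP1-FLAG and 118, 109 and 107 CPM in LV-NC (−0.44 ± 0.061, adjusted p 3.2e-05). In both genes the groups lay apart. The matriptase inhibitor gene SPINT2 fell by 0.16 ± 0.047 (adjusted p 0.0249), and dropping any 1 library but LV-NC replicate 3 ended the call (adjusted p 0.0528 to 0.106).

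The authors' annotation puts 176 genes, 8 of the members among them, in the KEGG tight junction pathway. Of the 122 tested genes of this pathway that are not members 12 rose and 13 fell, beside 8.35% and 7.71% of all tested genes, and their median log2 fold change was −0.0033. The smallest adjusted p-values belonged to the myosin gene MYH7B (1.24 ± 0.11), the polarity gene LLGL2 (−0.55 ± 0.068), the replication clamp PCNA (0.36 ± 0.045) and the tubulin TUBA1A (0.42 ± 0.063).

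Among 9423 genes with a mean of at least 10 CPM, those whose log2 CPM followed a called member most closely over the 6 libraries were KCNA2 and MYRF for CLDN7 (Pearson r 0.998 each), RREB1 and LLGL2 for CLDN4 (0.994 each), and WNT9A and SLC41A1 for OCLN (0.999 each). RREB1 was not called (log2 fold change −0.15 ± 0.060, edgeR adjusted p 0.0859), and the other genes of this list were called lower. With 2 groups of libraries many genes follow each member: 257, 231 and 251 had an r above 0.95 with CLDN7, CLDN4 and OCLN.

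**Figure D4:**
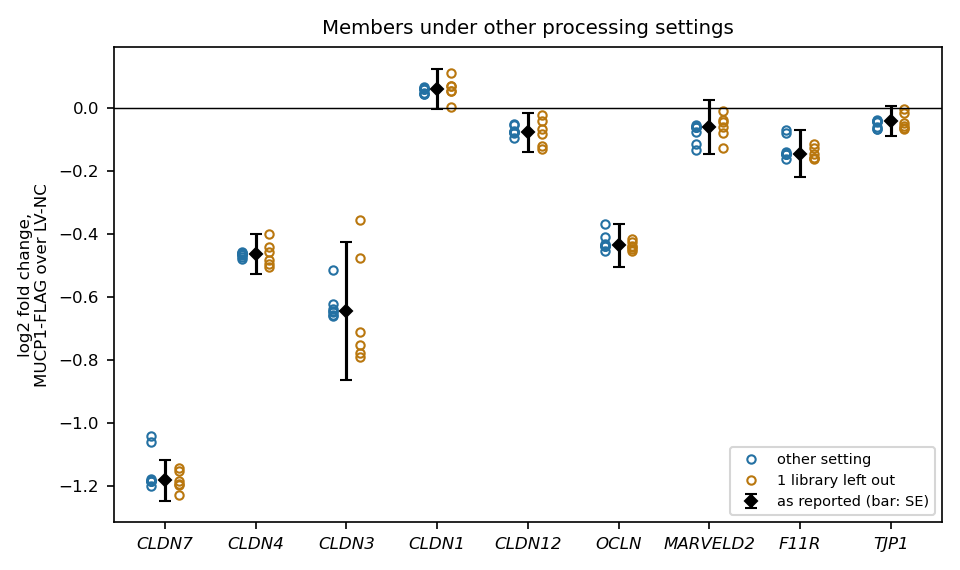
Log2 fold change of each member as reported (diamond, with SE), under 8 other processing settings or tests (7 for CLDN3; blue) and with each of the 6 libraries left out (orange). CLDN7, CLDN4 and OCLN stay below −0.36 throughout, and CLDN3 ranges from −0.79 to −0.36.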

How the data were processed

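The authors deposited whole-number read counts and FPKM values per gene for 6 libraries of 1 human cell line. Per the submitters' processing notes, GRCh38, HISAT2, fastp, DESeq2 and featureCounts were used; versions, roles and strand setting are not given in the sources used here. The table also held the authors' own log2 fold change, p-value and adjusted p-value, deposited without the test behind them. The gene length implied by count and FPKM varied between libraries for some members: for CLDN7 it was 867 to 969 bases in MUCP1-FLAG and 1002 to 1039 bases in LV-NC, so FPKM and counts give different folds.

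Counts were tested with edgeR 4.0.16 in R 4.3.3, using its robust quasi-likelihood test, TMM scaling and filterByExpr (minimum count 10), Benjamini-Hochberg adjusted over 12920 genes. The common biological coefficient of variation was 0.0521. Errors (±) are SEs for log2 fold changes and SDs for levels. Positions are from GENCODE 29. Alternatives used DESeq2 1.42.0 and limma 3.58.1. Replicates of a group differed beyond sampling noise (chi-square over its degrees of freedom 2.56 to 8.22). Named genes were all members, up to 4 called genes of each other list (else the 1 with the smallest p), the 2 genes most alike in pattern and the annotated neighbours. Genes named outside this rule, after their values were seen, were ILDR1, PATJ, CLDN11, SNAI1, ZEB1 and markers or factors given at their level only. Members and lists were chosen with earlier results of these data known. Some genes of these lists are not reported here.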

Additional observations from a re-analysis of the deposited data

How the results depend on the processing

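CLDN7, CLDN4 and OCLN were called lower under all 14 alternatives. The log2 fold change of CLDN7 ran from −1.23 to −1.04, with the weakest value for limma on log2(FPKM + 1). CLDN3 was called with no filter on low counts (−0.64, adjusted p 0.0202), and with 1 library left out it ran from −0.79 to −0.36. It had no value under the stricter filter. No other member crossed the threshold. With libraries left out, the difference in the share of CLDN3 ran from −0.51 to 0.23 points (0.10 when MUCP1-FLAG replicate 1 was dropped, 0.23 when LV-NC replicate 1 was), and that of CLDN4 was −1.81 points in CPM in place of FPKM. Over all genes limma called 517 higher and 553 lower on log2(FPKM + 1), and 510 and 543 on log2(FPKM + 0.1); with 1 library left out edgeR called 639 to 1323 higher and 624 to 1213 lower. Both limma fits gave 8 lower genes in the KEGG tight junction pathway, 0 higher membrane genes, 2 lower scaffold genes and 2 lower transcription factors. The stricter filter left 2 lower membrane genes. With 1 library left out the ranges were 1 to 2 higher membrane genes, 1 to 2 higher scaffold genes, 0 to 1 higher transcription factors and 1 to 3 lower ones. The cause of these moves was not tested. With the replicate number as a block CLDN7 had −1.18, CLDN4 −0.46, OCLN −0.44 and CLDN3 −0.62 (adjusted p 0.0971), with the 3 called members still called; PATJ lost its call (adjusted p 0.0553). Values of single marker and KEGG genes were not compared across alternatives, except EPCAM and genes of the other lists. The labels do not pair libraries by number, and deviations of same-numbered libraries correlated at 0.0024 to 0.050. Scaling moved the median over all genes by at most 0.017 (log2). Depth limits low genes: CLDN3 rests on 44 to 147 counts per library.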
